A study of Homo sapiens with 9 samples.

Results

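The replicative helicase and sliding clamp messages were examined in RNA bound by 2 poly(A) binding proteins. The set was the 10 rows of each deposited table named MCM2, MCM3, MCM4, MCM5, MCM6, MCM7, MCM8, MCM10, PCNA or RFC1, out of 51105 genes that both tables held. All 10 were found once in each table, and all 10 were among the 14581 genes with a mean above 50 normalised reads in both. Wildtype HEK293T cells, an established human embryonic kidney line that carries the large T antigen of SV40, were crosslinked with 0.1% formaldehyde for 10 min in every group. Each of 3 lysates was split for RNA immunoprecipitation (RIP) of the endogenous nuclear protein (PABPN) or the endogenous cytoplasmic protein (PABPC), which gave 3 PABPN RIP and 3 PABPC RIP libraries beside 3 libraries of input RNA without immunoprecipitation. Ribosomal RNA was removed before total RNA was sequenced from 1 end (75 nt). All values come from 1 cell line, and crosslinking holds both direct and indirect partners of a protein.

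MCM2 to MCM7 form the ring that is loaded on DNA at replication origins and later unwinds the fork. PCNA is the sliding clamp that holds DNA polymerases on their template, and RFC1 is the large subunit of the loader that opens the clamp. These messages are known for their rise at entry into S phase under E2F transcription factors. A nascent mRNA receives its tail in the nucleus, where PABPN coats it, and PABPC replaces PABPN on the mature message in the cytoplasm.

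Sequences of 2 kinds are shown because they bear on what joins these messages. The first is the promoter stretch with an E2F-type motif. The motif was read as TTTCCCGC, TTTCGCGC, TTTGCCGC or TTTGGCGC on either strand, from 250 bases before to 50 bases after the start of the RefSeq gene. RefSeq promoters (GRCh38.p14) were matched by symbol for 8 of the 10 genes, which have 11 promoters in all. No promoter was matched for MCM4 or MCM5. A match was found in 6 of the 11, 1 each in PCNA, MCM2, MCM3, MCM6, MCM7 and MCM8. The promoters of MCM10 and RFC1 held no match. Of 35116 RefSeq promoters of all genes, 3.31% held one. Counted per gene, this was 6 of 8 here and 3.99% of 27305 genes. Matches lay upstream of the start in PCNA, MCM3, MCM6 and MCM7, which are printed 5′ to 3′ with the motif in capitals. PCNA and MCM7 also have RefSeq starts without a match. The printed stretch of MCM7 lies inside the GENCODE span of the gene given below. Overlapping matches on the 2 strands run together in MCM6, where the 100 bases hold 4.
PCNA, chr20:5126663-5126692, minus strand: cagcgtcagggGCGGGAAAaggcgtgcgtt
MCM3, chr6:52284898-52284927, minus strand: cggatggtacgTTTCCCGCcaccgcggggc
MCM6, chr2:135876516-135876615, minus strand: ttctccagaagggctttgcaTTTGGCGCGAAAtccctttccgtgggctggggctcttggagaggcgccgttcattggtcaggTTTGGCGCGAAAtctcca
MCM7, chr7:100101566-100101595, minus strand: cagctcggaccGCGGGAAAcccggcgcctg

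The second is the poly(A) signal near the 3′ end, since both proteins bind the tail that is added just downstream of it. In the last 50 bases of the canonical transcript (GENCODE 44, hg38), AATAAA was found in 7 of the 10 messages. MCM7 and MCM8 held the variant ATTAAA instead, and MCM5 held neither. Over 12450 protein coding genes above the filter, the shares were 66.8%, 15.3% and 17.9%. The 30 bases around the signal (in capitals) are shown for the messages at both ends of the order found below and for MCM7, which had the highest pooled means. Where a window held more than 1 copy, the copy nearest to the end is marked, and MCM2 has a further AATAAA in lower case before it.
PCNA, chr20:5114963-5114992, minus strand: tttttgaatttaAATAAAgttacttgaatt
MCM2, chr3:127622407-127622436, plus strand: aatttttaataaagttgAATAAAatataaa
MCM7, chr7:100092738-100092767, minus strand: ggcctgacttccATTAAAacagggttttgt
MCM8, chr20:5998946-5998975, plus strand: tacataacactgATTAAAaattttaaaaaa

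Each deposited table gives 1 pooled mean per gene, the mean normalised read count over its 6 libraries (3 input and 3 RIP). The input libraries are the same in both tables. The PABPC table was brought to the scale of the PABPN table through the steps of these input libraries (a factor of 0.855), after which the difference between the mean PABPC RIP and the mean PABPN RIP is 2 times the difference of the pooled means. A ratio of pooled means above 1 therefore says that the PABPC RIP mean was the higher one, and the fold between the RIPs is at least that ratio, because input adds the same amount to both sides. For genes below 1000 normalised reads, the printed digits also gave the reads of every library. The 10 messages lay above that level in both tables, so their own library values stay pooled and their RIP difference carries no test. Estimated reads counted in genes were 40.8 to 51.5 M per library by the PABPN table and 34.2 to 53.2 M by the PABPC table. The same input libraries stood at 40.8 to 47.0 M by the first and 45.4 to 53.2 M by the second. Such an estimate is not the number of reads sequenced, for which the paper reports higher values. Of the markers of this line, VIM, NEFL, NEFM, PAX2 and LIN28B had pooled means between 176 and 79881, and of the markers of blood, liver, red cells, islets and muscle, PTPRC, CD3E, ALB, HBB, INS and MYH7 reached at most 8.64.

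The error of a log2 ratio was taken from genes whose libraries could be separated. Over 1174 of them at a level of 500 to 1000 normalised reads, the median coefficient of variation between the 3 libraries of a group was 8.23% for input, 9.7% for PABPN RIP and 9.35% for PABPC RIP. This gave a median error of 0.0673 on the log2 ratio of pooled means and an upper quartile of 0.098. The 3 lysates are described as independent biological replicates. All errors given for the 10 messages are this typical value, not their own spread.

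Of the 10 messages, 9 had the higher mean in PABPC RIP, and MCM8 had it in PABPN RIP. The PABPC RIP mean was the higher one for 48.1% of the 14581 genes and for 53.5% of the protein coding genes among them. The ratio of pooled means was at least 1.3 toward PABPC for 6 of the 10 (PCNA, MCM2, MCM4, MCM3, MCM6 and MCM7), where 31.0% of the 14581 genes passed the same limit. None of the 10 passed it toward PABPN, against 31.0% of all genes, though MCM8 was just short of it at 1.29 and passed it when the ratios were centred on protein coding genes. The median log2 ratio of the 10 was 0.49, beside -0.04 for all genes and 0.06 for protein coding genes. All 10 ratios were larger than 2 typical errors, and remained so with the upper quartile of the error, although RFC1 then stood at 2.02 errors. Centred on protein coding genes, the log2 ratios of RFC1 (0.14) and MCM10 (0.17) fell short of 2 upper quartile errors. For a pooled mean as a level in these bulk lysates, more cells carrying a message and more message per cell cannot be told apart. The ratio sets 2 RIPs of the same lysates side by side.

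**Figure D1:**
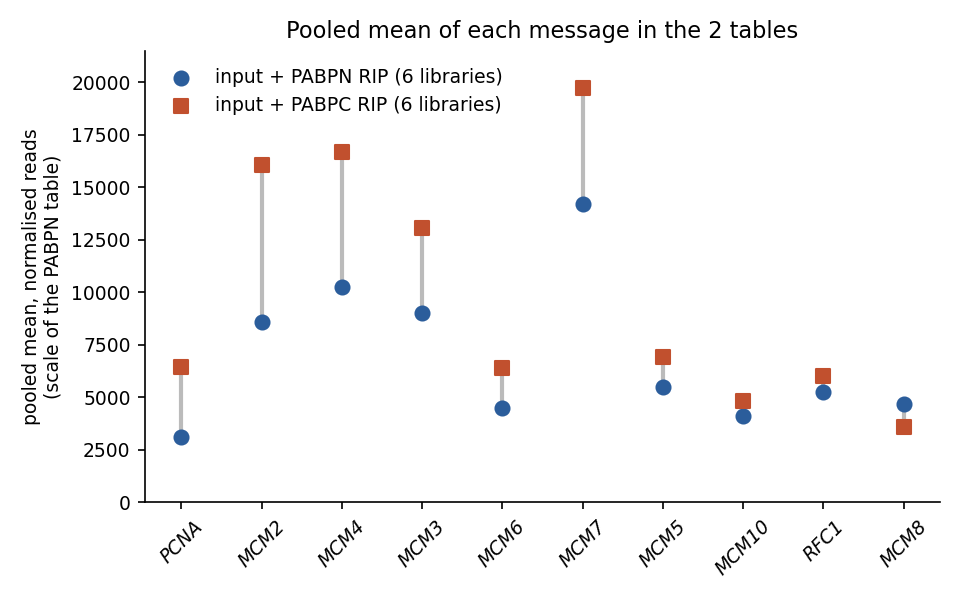
Pooled mean of each message in normalised reads over input and PABPN RIP (blue circles) and over input and PABPC RIP (red squares, brought to the same scale), 6 libraries each, with the genes in the order of their ratio. The red square lies above the blue circle for every gene but MCM8, and MCM7 has the highest values of the 10 at 14200 and 19719.

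PCNA (chr20:5114953-5126626, minus strand, 6 exons), the clamp, had the highest ratio. Its pooled mean was 3106 normalised reads with PABPN RIP and 6423 with PABPC RIP. The ratio was 2.07, or 1.05 ± 0.07 on the log2 scale (typical error), and 88.9% of all genes had a lower one. PABPC RIP exceeded PABPN RIP by 6634 normalised reads on average. Since the ratio was above 2, the pooled means also set a bound against input, and the mean PABPC RIP was at least 1.07 times the mean input. Of the 10 messages, PCNA was the only one for which such a bound came out above 1. This bound is not secure. The log2 ratio of PCNA less 2 typical errors was 0.91, and centred on protein coding genes the log2 ratio was 0.99. Both are below 1 on the log2 scale, where the bound against input no longer exceeds 1. The processed pseudogene PCNAP1 was listed at 0 in both tables, and its likeness to PCNA was not measured.

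RFC1 (chr4:39287456-39366375, minus strand, 25 exons), the large subunit of the clamp loader, lay near the other end of the order. Its pooled means were 5233 with PABPN RIP and 6002 with PABPC RIP. The ratio was 1.15 and the log2 ratio 0.20 ± 0.07, so the PABPC RIP mean was the higher one by 1538 normalised reads. PCNA and RFC1 act in the same step of fork assembly, and their log2 ratios lay far apart relative to the typical error. Of the smaller loader subunits, RFC2 (log2 ratio 0.94) and RFC5 (0.50) lay above RFC1, while RFC4 (0.15) and RFC3 (-0.37) lay below it, RFC3 toward PABPN.

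The 6 subunits of the helicase ring all had the higher mean in PABPC RIP, as 48.1% of all genes above the filter did. MCM2 (chr3:127598410-127622436, plus strand, 16 exons) had pooled means of 8607 with PABPN RIP and 16052 with PABPC RIP, a ratio of 1.86 and a log2 ratio of 0.90 ± 0.07. Its RIP difference of 14890 normalised reads was the largest of the 10. MCM2 is the subunit whose tail binds histones and is phosphorylated by the CDC7 kinase. MCM4 (chr8:47960185-47978160, plus strand, 17 exons), another target of that kinase, had 10258 and 16675, a ratio of 1.63 and a log2 ratio of 0.70 ± 0.07.

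MCM3, MCM6 and MCM7 lay close together. MCM3 (chr6:52264014-52284881, minus strand, 17 exons) had pooled means of 9028 with PABPN RIP and 13072 with PABPC RIP, with a log2 ratio of 0.53 ± 0.07. MCM6 (chr2:135839626-135876443, minus strand, 17 exons) had 4507 and 6410, with a log2 ratio of 0.51 ± 0.07. MCM7 (chr7:100092233-100101940, minus strand, 15 exons) had 14200 and 19719, with a log2 ratio of 0.47 ± 0.07. MCM2 and MCM5 flank the gate through which the ring takes up DNA, while MCM4, MCM6 and MCM7 form a subcomplex that unwinds DNA on its own. MCM5 (chr22:35400134-35425431, plus strand, 17 exons) had the lowest ratio of the ring, with pooled means of 5468 and 6911 and a log2 ratio of 0.34 ± 0.07, which is a ratio of 1.26 and thus under the limit of 1.3.

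The ring subunits are assembled in equal numbers, but the pooled means of their messages were not equal. These means hold input and RIP together, so the abundance of a message in the cells is not given by them. Pooled means of the 6 with PABPN RIP ran from 4507 (MCM6) to 14200 (MCM7), a 3.15-fold range, and with PABPC RIP from 6410 to 19719, a 3.08-fold range. Per kilobase of exonic length, the level with PABPN RIP ran from 752 normalised reads for MCM5 to 3240 for MCM7, and with PABPC RIP from 951 to 4500. Reads in introns were counted together with reads in exons, so a level per exonic kilobase includes unspliced RNA. Among all 10, PCNA had the highest level per kilobase with PABPC RIP (4580) and MCM8 the lowest (468). The deposited exonic length is 4386 bases for MCM7 and 7268 for MCM5, where the canonical transcripts have 2467 and 3458. For PCNA the 2 lengths are 1403 and 1276. The order of levels per kilobase, with PCNA above MCM7, thus depends on the length used.

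MCM10 (chr10:13161558-13211110, plus strand, 20 exons), which is no ring subunit but helps the loaded helicase to start, had pooled means of 4117 with PABPN RIP and 4819 with PABPC RIP. Its ratio was 1.17, with a log2 ratio of 0.23 ± 0.07. MCM8 (chr20:5950652-5998977, plus strand, 19 exons), which works with MCM9 in recombination repair and is not loaded at origins, stood apart. Its pooled means were 4659 with PABPN RIP and 3601 with PABPC RIP. The log2 ratio was -0.37 ± 0.07, so the PABPN RIP mean was the higher one, by at least 1.29-fold, and only 31.3% of all genes had a lower ratio. Its partner MCM9 had 6289 and 4758, a log2 ratio of -0.40.

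In the order PCNA, MCM2, MCM4, MCM3, MCM6, MCM7, MCM5, MCM10, RFC1, MCM8, a gap between neighbours was set against 2 typical errors of a difference, which is 0.19 on the log2 scale. RFC1 over MCM8 (a gap of 0.57) went beyond it, and MCM2 over MCM4 only just did (0.198 against 0.190). With the upper quartile of the error, MCM2 over MCM4 would fall short. The other 7 of the 9 neighbouring pairs stayed within the limit, and the smallest gap was 0.03, between MCM3 and MCM6. The order inside the group from MCM3 to MCM7 is thus not resolved at this error, and neither is that of MCM10 and RFC1.

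**Figure D2:**
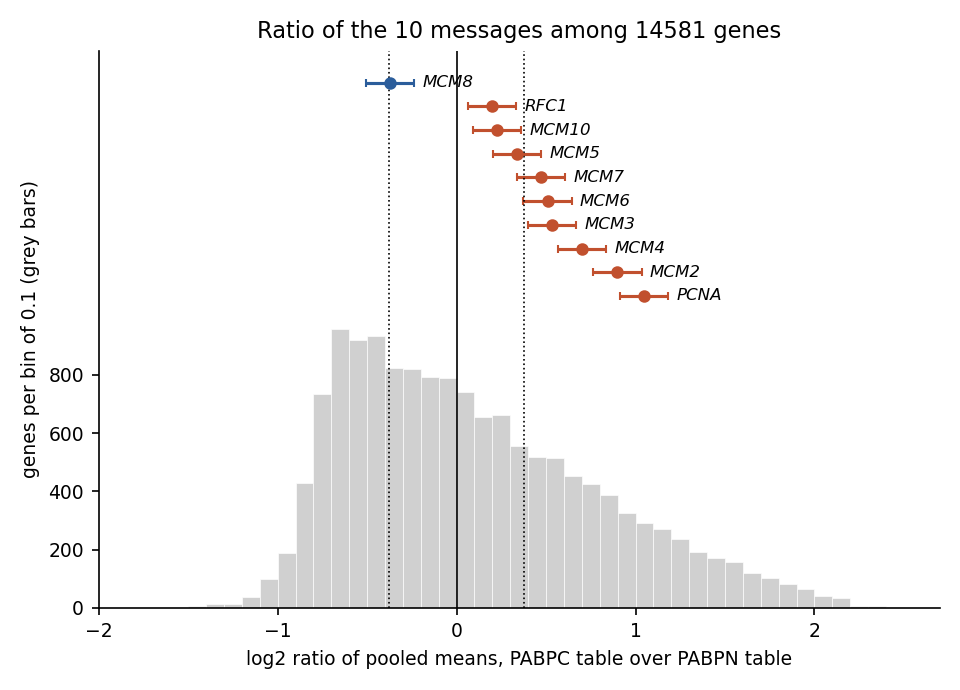
Log2 ratio of pooled means (PABPC table over PABPN table) of the 10 messages as points with bars of 2 typical errors, above grey bars that count the 14581 genes per bin of 0.1. Dotted lines mark a ratio of 1.3 in either direction, and 6 points lie to the right of the right-hand line while MCM8, at -0.37, lies just inside the left-hand one.

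A ratio of pooled means understates the fold between the RIPs, since both means contain input. To see by how much, genes with separated libraries and a level above 200 were read at the ratio of each message (within 0.05 on the log2 scale). At the ratio of PCNA, 59 such genes had a median fold of 3.32 between mean PABPC RIP and mean PABPN RIP, with 2.88 and 3.86 at the 10th and 90th percentiles. At the ratio of MCM2, 79 genes had a median of 2.83 (2.49 to 3.24). At that of MCM4, 89 genes had a median of 2.27 (2.01 to 2.51). At the ratios of MCM3, MCM6 and MCM7 the medians were 1.88, 1.84 and 1.78. They were 1.49 for MCM5, 1.32 for MCM10 and 1.27 for RFC1. At the ratio of MCM8, 158 genes had a median fold of 1.72 toward PABPN RIP (1.49 to 2.03). These folds are values of other genes of lower level, given as a scale for reading the ratios.

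The same genes show how the RIPs stood to input at a given ratio. At the ratios of PCNA, MCM2, MCM4, MCM3 and MCM6, mean PABPC RIP was above mean input in 100% of the genes, and at that of MCM10 in 88.2%. Mean PABPN RIP was above mean input in 32.2% at the ratio of PCNA and in 57.3% at that of MCM7. At the ratio of MCM8, PABPN RIP was above input in 70.9% and PABPC RIP in 24.7%. Whether PABPN RIP of the 10 messages themselves was above or below input is not given by pooled means.

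**Figure D3:**
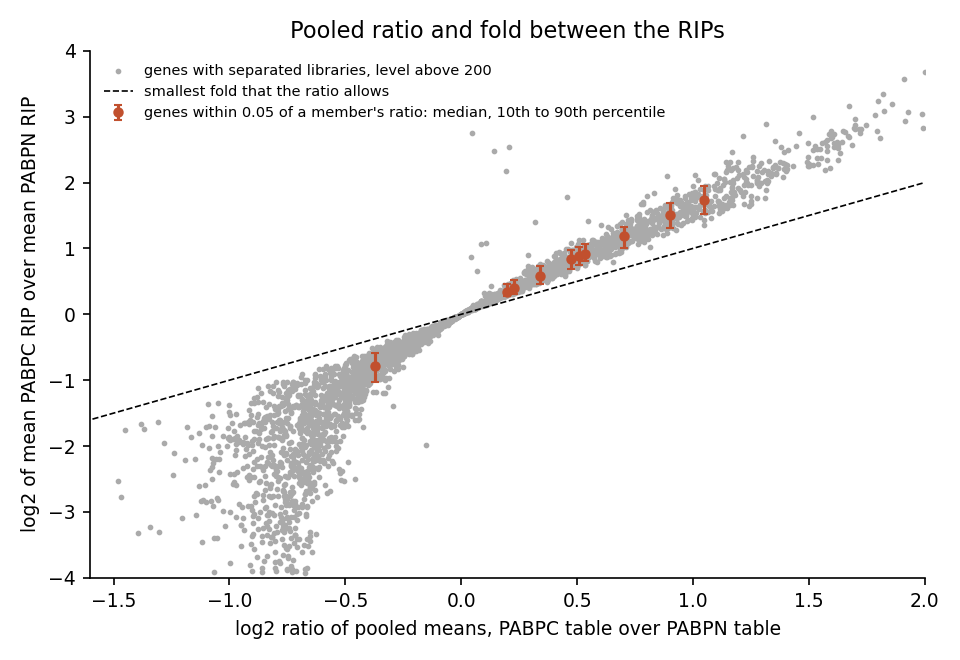
Log2 of mean PABPC RIP over mean PABPN RIP against the log2 ratio of pooled means, for separated genes with a level above 200 (grey points), with the median and the 10th to 90th percentile of genes within 0.05 of each message's ratio (red). Grey points lie on the far side of the dashed line, the smallest fold that a ratio allows, and the red medians run from 1.72-fold toward PABPN RIP to 3.32-fold toward PABPC RIP.

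Message length varied with the ratio. Across the 10 messages, Spearman's rank correlation between exonic length, as deposited, and log2 ratio was -0.65, and over 12452 protein coding genes it was -0.44. With the length of the canonical transcript it was -0.75 over the 10 and -0.40 over 12450 protein coding genes. PCNA is the shortest (1403 bases) and MCM8 the longest (7691 bases), with an annotated 3′ UTR of 4589 bases against 333 for PCNA. Against the span of the gene, which includes introns, the rank correlation was -0.72 over the 10 and -0.61 over 12450 protein coding genes. When protein coding genes were divided by span into 5 bins of equal size, the first bin (up to 12.3 kb) had a median log2 ratio of 0.87 and the last (from 114.0 kb) one of -0.46. These correlations are across genes of the same libraries, and reads from introns are part of the counts.

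Relative to protein coding genes of like length, 9 of the 10 messages lay above the median of their bin when exonic length was divided into 5 bins in the same way, MCM8 being the exception. MCM2 lay 0.80 above its bin, with 89.1% of those genes below it, and MCM4 lay 0.81 above, with 90.6% below. PCNA, in the bin of the shortest genes, lay 0.29 above and had 63.9% of the genes below it. Relative to genes of like span, 7 of the 10 lay above the median of their bin. MCM7, whose gene spans only 9.71 kb, had a log2 difference of -0.40 from its bin, MCM5 had a difference of -0.05 and MCM8 one of -0.52. In its bin of span, MCM2 lay 0.51 above the median, with 78.3% of those genes below it. MCM4 lay 0.31 above, with 67.2% below. MCM6 (0.36 above, 75.0% below) and RFC1 (0.30 above, 75.5% below) had larger shares below them than MCM4, so its high place was seen by length only. MCM7 lay only 0.21 above the median of its bin of exonic length, with 59.8% of those genes below it.

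**Figure D4:**
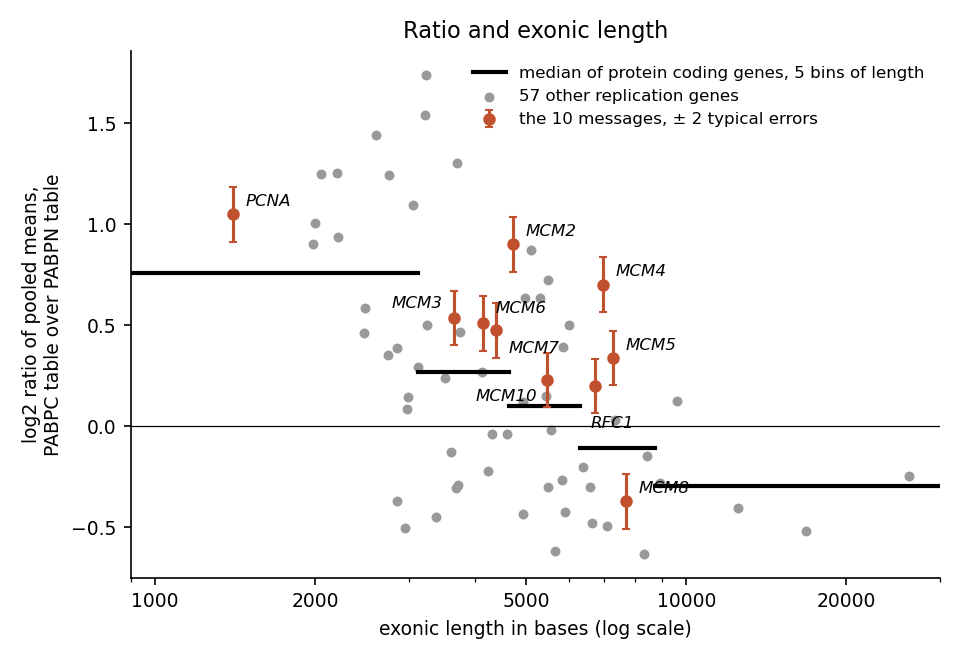
Log2 ratio of pooled means against deposited exonic length on a log axis for the 10 messages (red, with bars of 2 typical errors) and the 57 other replication genes above the filter (grey), with the median of protein coding genes in each of 5 bins of length as black lines. MCM2 and MCM4 stand about 0.80 above the lines of their bins, and MCM8 is the only red point under its line.

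Other genes of DNA replication were read from a list of 58, of which 57 were above the filter. MCMDC2 was below it. Of the 57, 22 (38.6%) had a ratio of at least 1.3 toward PABPC and 10 (17.5%) toward PABPN, beside 31.0% and 31.0% of all genes. Their median log2 ratio was 0.12. E2F-type motifs were found in 20 of the 47 listed genes with a RefSeq promoter.

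The highest ratios of the list belonged to RPA3, the small subunit of the single strand binding protein RPA (log2 ratio 1.74), GINS2, a subunit of the GINS complex that joins MCM2 to MCM7 in the active helicase (1.54), and POLE3, a histone-fold subunit of DNA polymerase epsilon (1.44). The lowest were those of MTBP (-0.63), which acts in origin firing, PRIM2 (-0.62), the large primase subunit, and POLE (-0.52), the catalytic subunit of DNA polymerase epsilon. Subunits of 1 enzyme thus lay at both ends. POLE3 and POLE differed by much more than the typical error of 0.0673, with exonic lengths of 2607 and 16790 bases.

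By role, the groups are small and are read beside the 31.0% of all genes past the limit in either direction. The licensing genes CDC6 (0.63), CDT1 (1.24) and GMNN (0.46), which load the ring or restrain its loading, passed the limit of 1.3 toward PABPC in 3 of 3. All 3 RPA genes did so as well. CDC45 and the 4 GINS genes, the partners of the ring, all had a ratio above 1, as 48.1% of all genes did. The limit was passed by 2 of the 5, GINS2 and GINS3. None of the 6 origin recognition genes passed in either direction. ORC1 had a log2 ratio of 0.29, and the other 5 lay between -0.31 and -0.04. Of the 12 polymerase and primase genes, 5 passed toward PABPC and 4 toward PABPN. The 8 clamp loader genes gave 3 and 3, and the 6 genes of Okazaki fragment processing gave 3 and 1. Of the 5 origin firing factors none passed toward PABPC and 1, MTBP, toward PABPN. Of the 4 fork factors 1, TIMELESS (0.39), passed toward PABPC, as did PCLAF (0.47), which binds PCNA. The kinase CDC7 (-0.13) and its activator DBF4 (-0.04) passed in neither direction. MCMBP, a chaperone of MCM subunits, had pooled means of 7208 and 10185 and a log2 ratio of 0.50, close to MCM6.

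The 3 listed genes CHTF8, POLD4 and POLE4 were low enough for their libraries to be separated, and for these the RIPs could be tested with limma over 5119 genes (adjusted p at most 0.01). PABPC RIP was called higher than PABPN RIP in 26.9% of the genes and lower in 46.7%. POLE4, a further small subunit of polymerase epsilon, had 507, 654 and 713 normalised reads in input, 432, 355 and 392 in PABPN RIP, and 1086, 1610 and 1566 in PABPC RIP. The 3 groups did not overlap. How many of the 5119 genes had groups apart was not counted, for POLE4 or for POLD4 and CHTF8 below. PABPC RIP was 3.57-fold higher than PABPN RIP (log2 1.83 ± 0.17 SE, limma adjusted p = 1.17e-06).

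Against input, POLE4 rose 2.26-fold in PABPC RIP (limma adjusted p = 4.75e-05), as 35.2% of genes did, and fell 1.58-fold in PABPN RIP (limma adjusted p = 0.00848), as 6.84% did. The second call rests on single libraries. It was lost without input library b or c, without any 1 of the 3 PABPN RIP libraries, or without PABPC RIP library b or c, with limma adjusted p of up to 0.0434. Scaled to total reads, it held (limma adjusted p = 0.00352), but then 13.6% of genes were called lower in PABPN RIP than in input and 15.7% higher, in place of 6.84% and 22.3%. POLD4, the smallest subunit of polymerase delta, had 112, 66.2 and 112 normalised reads in input, 84.0, 131 and 96.9 in PABPN RIP and 423, 282 and 293 in PABPC RIP. Input and PABPN RIP overlapped, and PABPC RIP lay above both. It was 3.17-fold higher in PABPC RIP than in PABPN RIP (log2 1.67 ± 0.25 SE, limma adjusted p = 6.99e-05). The limma difference between PABPN RIP and input was 0.12 ± 0.25 (log2, adjusted p = 0.732).

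CHTF8, a subunit of the alternative clamp loader with CHTF18 and DSCC1, went the other way. Its values were 613, 661 and 613 in input, 668, 771 and 669 in PABPN RIP and 309, 341 and 387 in PABPC RIP, so that PABPC RIP lay below both other groups. PABPC RIP was 2.03-fold lower than PABPN RIP (log2 -1.02 ± 0.11 SE, limma adjusted p = 4.94e-06) and 1.83-fold lower than input (limma adjusted p = 2.04e-05), as 37.1% of genes were lower. The libraries of a group could not be tied to replicate numbers, so no lysate was followed across the groups.

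**Figure D5:**
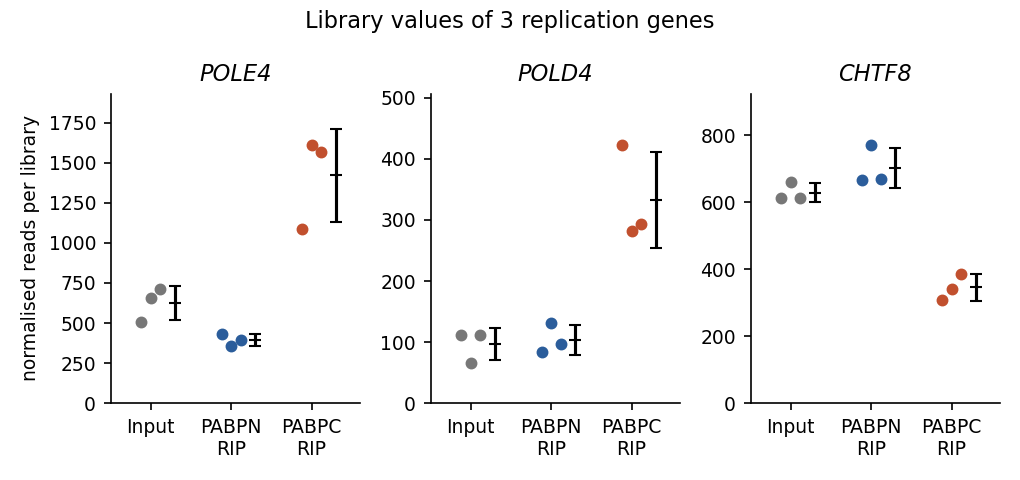
Normalised reads in each of the 9 libraries for POLE4, POLD4 and CHTF8, with the mean and SD of the 3 libraries of a group in black beside the points. PABPC RIP lies above the other groups for POLE4 and POLD4 and below them for CHTF8.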

How the data were processed

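Groups were taken from sample titles. The authors aligned reads to hg38 with STAR, counted exonic and intronic reads per gene with featureCounts 2.0.2 on a GENCODE-derived annotation without overlapping stretches, and compared each RIP with input in DESeq2. The signal column they deposited is the mean of normalised reads over 6 libraries. The fold changes, errors, statistics and p-values that the authors deposited beside it hold their own comparisons and were not used. Gene length was read as exonic bases. Of 123 repeated rows in each table, the first was kept.

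The most frequent low values gave the step of 1 read in each of the 9 libraries. Input steps set the scale between tables (0.855, from 0.8463 to 0.8598 by library, which moves a log2 ratio by at most 0.0147). Reads per library were solved by lattice reduction for 5119 of 5309 genes between 50 and 1000 normalised reads, where exactly 1 solution met the printed digits. These genes were fitted with limma 3.58.1 (R 4.3.3, trend, log2 of normalised reads + 1, all 9 libraries, two-sided, Benjamini-Hochberg). Both steps were tested on simulated reads with known answers. Of 1480 genes simulated with the spread that the solver assumed, 98.0% were solved exactly and 0 wrongly. The limma fit recovered 6% of simulated 1.3-fold changes between the RIPs, 60% of 1.5-fold and 98% of 2-fold ones, with 0 false calls. Reads counted in genes were estimated as size factor times the sum of pooled means. The replicate error was planned for a higher level than could be solved and was taken at 500 to 1000. The members and lists were chosen with earlier results of these data known. Named genes were all 10 members, the 3 highest and 3 lowest ratios of the replication list, and up to 5 listed genes called by limma with the largest differences; further listed genes were named by role after their values were seen. Alternatives covered centring, repeated rows, error, filter, fold, pseudocount, scaling and each library left out.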

Additional observations from a re-analysis of the deposited data

How the results depend on the processing

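Centring the log2 ratios on the median of all genes moved each by 0.04 and centring on protein coding genes by -0.06. Such a shift is a constant and smaller than every ratio of the 10 messages, so it could not turn a direction, and 6 passed the fold of 1.3 toward PABPC under both. Keeping the last of repeated rows touched none of the 10. Centred on protein coding genes, MCM8 (log2 -0.43) passed the fold toward PABPN. The number of genes past the fold depended on the limits. Without a filter it was 8871 toward PABPC and 14439 toward PABPN, in place of 4515 and 4524. At a fold of 1.5 it was 3433 (23.5% of the genes) and 2637 (18.1%), with 3 of the 10 messages toward PABPC. At a fold of 2 it was 1776 (12.2%) and 172 (1.18%), with 1 of the 10 toward PABPC. At both of these folds the share of the 10 messages toward PABPC was near that of all genes. With a filter of 200 it was 3978 and 3222. With that filter limma tested 2502 genes, fewer by construction, and called 1850 between the RIPs, 864 for PABPN RIP against input and 1871 for PABPC RIP against input, in place of 3765, 1492 and 3702. Leaving out each library in turn gave 3467 to 3782, 1038 to 1649 and 3451 to 3815 calls. POLE4, POLD4 and CHTF8 passed the threshold between the RIPs, and for PABPC RIP against input, under all alternatives run, with adjusted p at most 0.000496. POLE4 in PABPN RIP against input passed in 5 of 12. Scaling to total reads moved the median log2 difference by -0.20 for PABPN RIP and by -0.17 for PABPC RIP against input, and in the former turned 1142 higher and 350 lower calls into 803 and 696. No paired analysis was possible because the libraries carry no replicate numbers in the deposited columns. Depth does not limit the 10 messages, whose pooled means start at 3106 reads, but the pooling of their libraries does.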
